A study of Danio rerio with 6 samples.

Results

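The Fat and Dachsous genes encode giant cadherins, and 8 rows of the 25640 in the count table belong to them. They were chosen by gene symbol from a list of 9 zebrafish genes (fat1a, fat1b, fat2, fat3a, fat3b, fat4, dchs1a, dchs1b and dchs2), and the family was picked with the difference of fat2 between the groups already known. fat4 was not analysed here. The name table gives the same symbol, FAT1, to both fat1 genes (ENSDARG00000017591 and ENSDARG00000019063) and FAT3 to both fat3 genes (ENSDARG00000033840 and ENSDARG00000087709), so these are told apart by ID and not by paralog letter. The other rows are FAT2 (ENSDARG00000018923), dchs1a (ENSDARG00000070025), dchs1b (ENSDARG00000079850) and dchs2 (ENSDARG00000037286).

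Fat and Dachsous proteins are very long cadherins that span the membrane and meet across the border of neighbouring cells. In Drosophila, Dachsous on one cell acts as the ligand of Fat on the next, the Golgi kinase Four-jointed tunes their binding, and Fat acts through the Hippo kinases to hold back Yorkie, the fly counterpart of Yap. In vertebrates Dchs1 and Fat4 are the best known pair of this kind, while Fat1 is known for its part in actin organisation and junctions, Fat2 for cerebellar granule neurons and migrating epithelial sheets, and Fat3 for the shaping of retinal neurons.

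Polyadenylated RNA was sequenced from livers of adult zebrafish in 6 libraries, 3 from WT fish and 3 from fish transgenic for lf:Yap. The labels give neither the promoter nor the Yap allele of the transgene, nor the strain, sex or age in days, nor how many fish a library holds; as background knowledge of the line, the liver fatty acid binding protein promoter drives Yap in hepatocytes. The p-values therefore speak to the spread among these libraries, part of which may be technical. Libraries held 71581315 to 87543545 gene counts. YAP1 (ENSDARG00000068401) read 22.6, 27.4 and 20.4 CPM (read counts scaled to a common library size) in WT replicates 1 to 3 and 443, 386 and 291 CPM in lf:Yap replicates 1 to 3, the direction the labels call for. Each of 18 hepatocyte marker genes was abundant in every library, and their lowest value was the 106.2 CPM of TTR. Exocrine pancreas transcripts divided the libraries across the groups: 15 marker genes summed to 17141, 820.1 and 1697 CPM in WT and to 13657, 255.2 and 19014 CPM in lf:Yap. PLA2G1B (ENSDARG00000009153) did not follow this divide, at 138.2 to 197.6 CPM, and gave 197.6 of the 255.2 CPM in lf:Yap replicate 2.

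FAT2 was the member with the widest separation of the groups. It read 5.66, 1.61 and 1.78 CPM in the WT libraries, from 449, 144 and 154 reads. In the lf:Yap libraries it read 71.2, 45.4 and 79.0 CPM, from 5849, 3299 and 5698 reads. Every lf:Yap library lay far above every WT library, and among the latter replicate 1 stood highest. The fitted ratio was 21.6-fold (log2 fold change 4.43 ± 0.58, SE, n = 3 each), the 31st highest of 24674 tested genes. Since this difference led to the choice of the family, it is given as a description and without a p.

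**Figure D1:**
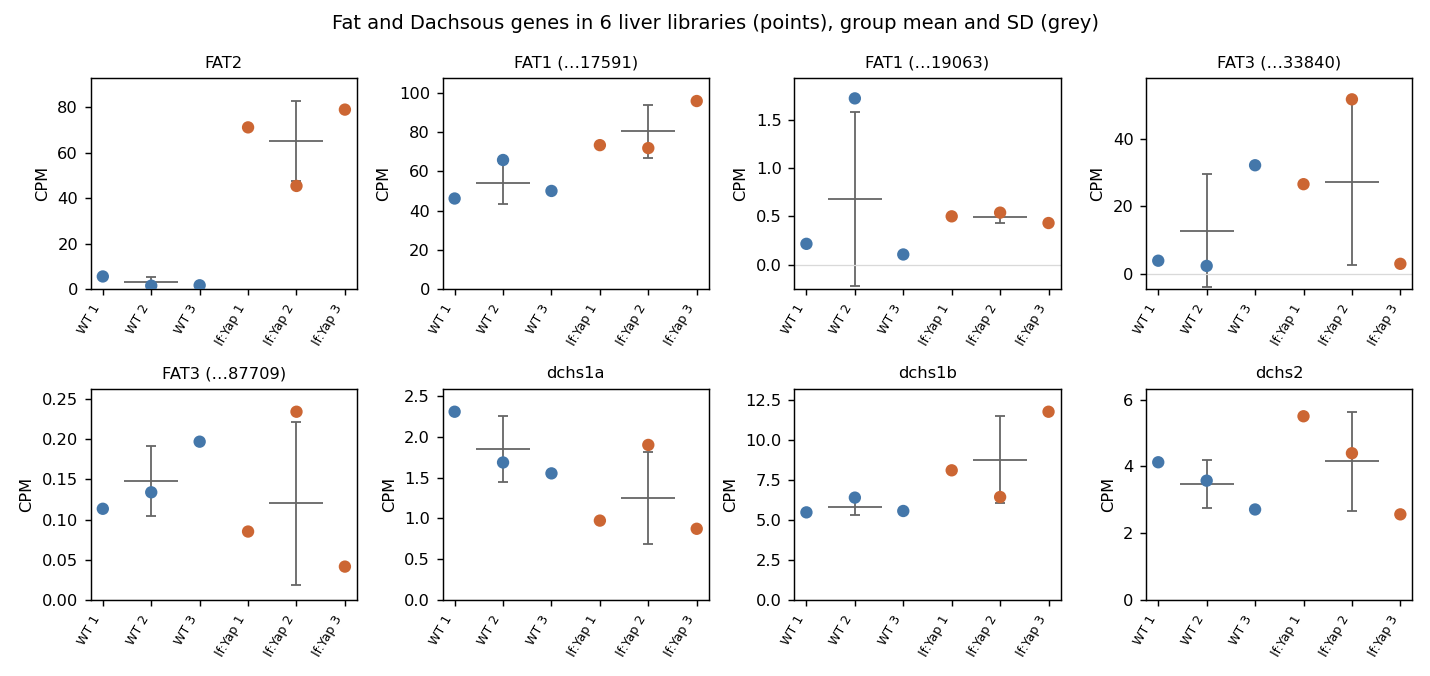
Level of each of the 8 genes in CPM (vertical axis) in each library (points; blue WT, orange lf:Yap), with the group mean and SD in grey. FAT2 lay between 1.61 and 5.66 CPM in WT and between 45.4 and 79.0 CPM in lf:Yap, while FAT3 (ENSDARG00000033840) was high in 1 WT and 2 lf:Yap libraries.

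FAT2 levels are also given by the pancreas RNA of the libraries, a split made after seeing the data. Among the 3 libraries with little pancreas RNA, FAT2 read 1.61 and 1.78 CPM in WT replicates 2 and 3 and 45.4 CPM in lf:Yap replicate 2. Among the 3 with much of it, FAT2 read 5.66 CPM in WT replicate 1 and 71.2 and 79.0 CPM in lf:Yap replicates 1 and 3. A fit of the 3 poor libraries alone, chosen after seeing the data, gave a log2 fold change of 4.74. Its lone lf:Yap library gives no spread within that group. The poor libraries were not matched in pancreas RNA. In WT replicates 2 and 3 and lf:Yap replicate 2, prss1 (ENSDARG00000042993) read 83.0, 219.3 and 5.56 CPM, and PLA2G1B 141.0, 155.5 and 197.6 CPM. Both groups of fish therefore showed the higher FAT2 level in the libraries rich in pancreas RNA, and the part of that tissue in this was not tested. Within the lf:Yap libraries FAT2 did not follow YAP1: replicate 3 had the most FAT2 and the least YAP1.

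Lists of neural and of epidermal and mesothelial markers were also read, since Fat2 is known from cerebellar granule neurons and migrating epithelial sheets. Both lists reach beyond those cell types. None of their tested markers passed the test, and the summed level of each list overlapped between the groups. The 15 neural marker genes summed to 11.6 to 14.8 CPM in WT and to 9.06 to 11.9 CPM in lf:Yap. NEUROD1 (ENSDARG00000019566), a gene of young granule neurons but not of these alone, read 0.870, 0 and 0.0116 CPM in WT and 0.0730, 0.0275 and 0.0554 CPM in lf:Yap. Its highest library, WT replicate 1, was also the WT library with the most FAT2 and the most pancreas RNA. Counts of NEUROD1, STMN2 and nefla were too low to be tested. Of the 12 neural markers tested 3 lay above 0 and 9 below on the log2 scale. The 9 epidermal and mesothelial markers summed to 101.1 to 135.5 CPM in WT and to 90.3 to 165.5 CPM in lf:Yap, sums made up mostly of podxl, krt15 and krt5. Of these 9 markers 4 lay above 0 and 5 below. TP63 (ENSDARG00000044356), a transcription factor gene of basal epidermis, shared the group direction of FAT2. It read 0.820, 1.09 and 1.09 CPM in WT and 1.70, 1.63 and 1.90 CPM in lf:Yap (log2 fold change 0.80; edgeR adjusted p = 0.361). Within lf:Yap both TP63 and FAT2 were highest in replicate 3 and lowest in replicate 2. Within WT, TP63 was lowest in replicate 1, where FAT2 was highest. TCF21 (ENSDARG00000036869), a mesothelial and stromal factor gene, ran the other way, at 1.35 to 1.67 CPM in WT and 0.620 to 1.14 CPM in lf:Yap (edgeR adjusted p = 0.435). The part of these cell types in the FAT2 difference was not tested. Every row of the count table held at least 30 reads over the 6 libraries, so no marker read could be at 0 in all of them. Of the listed entries, 4 neural and 4 epidermal or mesothelial ones were matched to no row and not read. In bulk tissue, a change in the number of cells of a type and a change in RNA per cell cannot be told apart.

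The fat1 gene ENSDARG00000017591 was well covered in every library, with 3665 to 6912 reads. It read 46.2, 65.8 and 50.1 CPM in WT and 73.4, 71.9 and 95.8 CPM in lf:Yap. The groups did not overlap, but the gap between the highest WT and the lowest lf:Yap library was small beside the spread within each group. Its fitted ratio was 1.49-fold (log2 fold change 0.57 ± 0.23, SE), and it did not pass the test over all genes.

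The second fat1 gene, ENSDARG00000019063, was scarce. It read 0.214, 1.72 and 0.104 CPM in WT and 0.499, 0.537 and 0.430 CPM in lf:Yap. WT replicate 2, with 154 reads against 9 to 41 in the other libraries, stood alone above all others. That library set the sign of the difference: the log2 fold change was -0.48 ± 0.95 (SE) with it and 1.61 without it.

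The fat3 gene ENSDARG00000033840 split the libraries without regard to genotype. It read 3.83, 2.29 and 32.2 CPM in WT and 26.6, 51.8 and 2.91 CPM in lf:Yap, from 205 to 3760 reads. WT replicate 3 and lf:Yap replicates 1 and 2 were high, the other 3 libraries were low, and no library lay between 3.83 and 26.6 CPM. The log2 fold change of 1.08 was smaller than its SE of 1.23, and it became 3.13 when WT replicate 3 was left out and 0.21 when lf:Yap replicate 2 was. The divide did not match that in pancreas RNA, where lf:Yap replicate 1 was rich and lf:Yap replicate 2 poor. The other fat3 gene, ENSDARG00000087709, was barely detected, at 3 to 17 reads and 0.0416 to 0.234 CPM, with overlapping groups.

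The Dachsous genes, which encode the ligand side of the pair, were all present at low CPM. dchs1b read 5.48, 6.41 and 5.57 CPM in WT and 8.12, 6.45 and 11.8 CPM in lf:Yap, a log2 fold change of 0.59 ± 0.27 (SE). Its groups stood apart by only 6.41 against 6.45 CPM, and lf:Yap replicate 3 lay highest. dchs1a read 2.31, 1.69 and 1.55 CPM in WT and 0.973, 1.90 and 0.873 CPM in lf:Yap. Replicate 2 of lf:Yap fell among the WT values while replicates 1 and 3 were lower, for a log2 fold change of -0.57 ± 0.40 (SE). dchs2 read 4.12, 3.57 and 2.71 CPM in WT and 5.50, 4.39 and 2.56 CPM in lf:Yap, with overlapping groups and a log2 fold change of 0.26 ± 0.34 (SE).

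Over the family, 1 of 8 members, FAT2, passed edgeR's quasi-likelihood test at an adjusted p under 0.05, where 0.665% of all tested genes passed; with the family chosen on this contrast, nothing is read from that share. For 3 members, FAT2, ENSDARG00000017591 and dchs1b, all lf:Yap libraries lay above all WT libraries, as for 8.84% of all tested genes. For 0 members all lay below, against 2167 of the 24674 tested genes. With no adjustment, 2 members were higher at an edgeR p under 0.05, as were 6.12% of all tested genes. At that p 0 members were lower, against 1282 of the 24674 tested genes. With so few members, nothing is read from either 0. When libraries were left out singly, FAT2 passed once, in the fit lacking WT replicate 1, and missed the threshold in the 5 lacking WT replicate 2, WT replicate 3 or any lf:Yap replicate. The FAT2 log2 fold change ran from 4.12 to 5.28 over these 6 fits. Since FAT2 was known to differ, its passes and misses are a description and not a test.

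**Figure D2:**
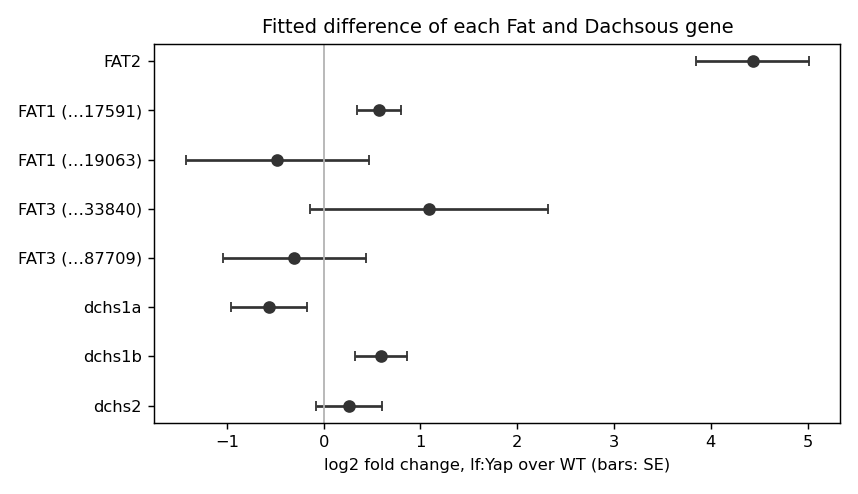
Fitted log2 fold change of lf:Yap over WT (horizontal axis; bars are the SE) for the 8 genes. FAT2 stands at 4.43; the other 7 lie between -0.57 and 1.08, with the widest bars on FAT3 (ENSDARG00000033840) and on the scarce FAT1 (ENSDARG00000019063).

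Across the 6 libraries the members did not share 1 pattern. Over the 28 pairs of members, Pearson's r of log2(CPM + 0.5) ran from -0.87 for dchs1a with dchs1b to 0.91 for the fat1 gene ENSDARG00000017591 with dchs1b. The paralogs dchs1a and dchs1b thus varied in opposite senses: lf:Yap replicate 3 had the most dchs1b and the least dchs1a. All pairs share the same 6 libraries and the same 2 groups, so r describes these libraries only.

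The genes whose levels followed FAT2 most closely had r between 0.992 and 0.997 over the 6 libraries, among 11489 genes with a symbol and a mean of at least 1 CPM. They were s1pr5a (ENSDARG00000040526), a receptor of sphingosine 1-phosphate, ptprja (ENSDARG00000033042), a receptor-type tyrosine phosphatase, FUOM (ENSDARG00000039422), a fucose mutarotase, MKNK2 (ENSDARG00000011373), a kinase that acts on a translation initiation factor, and PTCHD3 (ENSDARG00000010075), of the patched domain family. Each had its highest WT level in replicate 1, as FAT2 did, a likeness that the choice by r favours. Of the 5, PTCHD3 came closest to FAT2 in log2 fold change, at 4.57 ± 1.11 (SE). PTCHD3 read 3.11, 0.257 and 0.185 CPM in WT and 36.4, 18.1 and 29.8 CPM in lf:Yap. MKNK2 read 31.9, 12.4 and 16.6 CPM in WT and 192.7, 199.3 and 276.7 CPM in lf:Yap. By edgeR 3 of the 5, ptprja, FUOM and MKNK2, passed the test over all genes; an r this high over 2 separated groups mostly restates that separation.

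The fat3 gene ENSDARG00000033840 had its own companions, looked up after its values were seen. SLC44A5 (ENSDARG00000017398), of the choline transporter-like family, had r = 0.989 and read 2.08, 1.81 and 23.7 CPM in WT and 17.9, 32.1 and 1.05 CPM in lf:Yap. CLGN (ENSDARG00000009315), an endoplasmic reticulum chaperone gene, had r = 0.983 and read 7.73, 7.94 and 26.5 CPM in WT and 18.9, 34.1 and 8.05 CPM in lf:Yap. Both were high in the same 3 libraries as the fat3 gene, across genotypes. The other 3 of the closest 5, CAAP1, NUP35 and SERGEF, moved little, between 3.66 and 8.35 CPM in all.

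**Figure D3:**
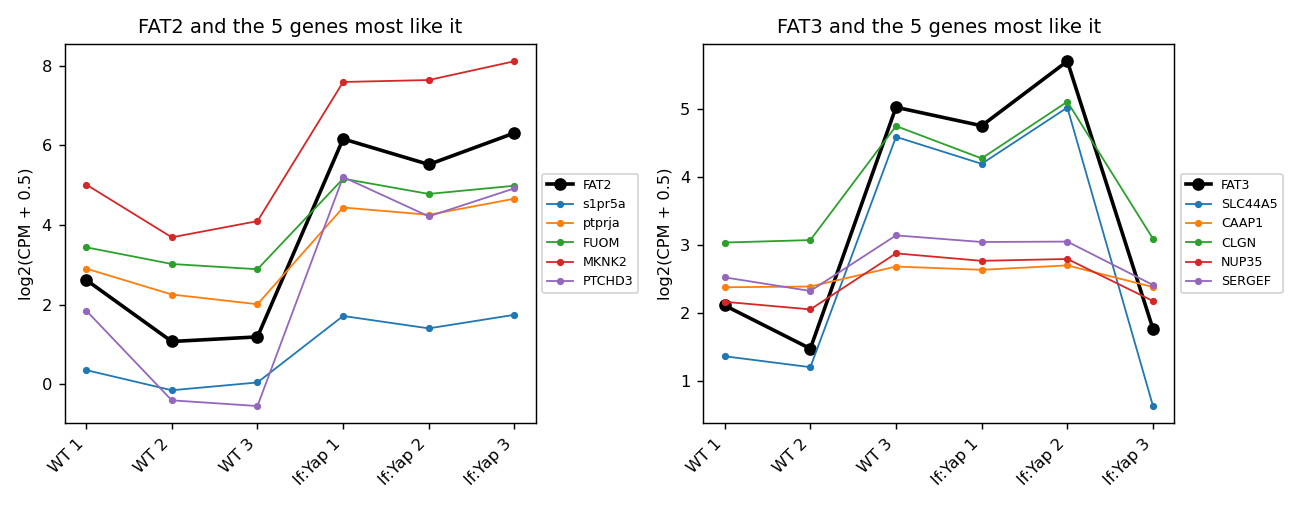
Levels as log2(CPM + 0.5) (vertical axis) of FAT2 (left) and of FAT3, ENSDARG00000033840 (right), each in black with the 5 genes of highest Pearson r in colour; lines only join the points of a gene. On the left the step falls between WT and lf:Yap, and on the right WT replicate 3 and lf:Yap replicates 1 and 2 are high.

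Genes beside fat2 in the gene order of the RefSeq annotation GRCz12tu did not pass the test. SLC36A1 (ENSDARG00000075618), an amino acid transporter gene whose span overlaps that of fat2 there, had a mean of 4.64 ± 1.23 CPM in WT livers against 9.52 ± 2.15 CPM with the transgene (± SD, n = 3 each; edgeR adjusted p = 0.242). Without a stated strand setting, reads in the shared stretch cannot be assigned with certainty. mtnr1al (ENSDARG00000012057), a melatonin receptor gene on one side, had means of 1.54 ± 0.597 and 5.35 ± 0.923 CPM (edgeR adjusted p = 0.0954), and its further neighbour atox1 (ENSDARG00000087693), a copper chaperone gene, 17.7 ± 2.84 and 9.29 ± 1.45 CPM (edgeR adjusted p = 0.161). On the other side GM2A (ENSDARG00000088439) and B4GALT7 (ENSDARG00000021899) had log2 fold changes of -0.10 ± 0.25 and 0.21 ± 0.34 (SE). The neighbours thus leaned both ways.

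Among proteins linked to Fat and Dachsous in flies or mammals, ENAH was the 1 gene of 21 tested that passed. Over all tested genes 0.665% passed. ENAH (ENSDARG00000032049), an actin regulator of the Ena/VASP family that Fat1 is known to bind in mammalian cells, read 1.40, 1.26 and 1.49 CPM in WT and 7.29, 6.10 and 4.99 CPM in lf:Yap. No lf:Yap library came near the WT range (log2 fold change 2.14 ± 0.26, SE; edgeR adjusted p = 0.0205). ENAH passed in 0 of the 6 leave-one-out fits. EVL (ENSDARG00000035650), of the same Ena/VASP family, lay the other way. It read 1.17, 1.03 and 0.811 CPM in WT and 0.462, 0.730 and 0.721 CPM in lf:Yap (log2 fold change -0.65 ± 0.36, SE, edgeR adjusted p = 0.575). The list, which also holds the atrophins, Dlg5, Fbxl7, Lix1l, casein kinases 1 and Pals1, had a median log2 fold change of 0.08, against -0.03 over all tested genes, with 12 genes above 0 and 9 below.

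In the Hippo pathway list 3 of 28 tested genes passed as higher and 0 as lower, YAP1 being 1 of the 3. Over all tested genes 0.665% passed, 137 higher and 27 lower. amotl2b (ENSDARG00000061948), an angiomotin that binds Yap, was higher by 4.38 ± 0.39 on the log2 scale (SE; edgeR adjusted p = 0.00924), close in size to FAT2, and missed the threshold once among the leave-one-out fits, when WT replicate 3 was left out. LATS2 (ENSDARG00000078864), a kinase that phosphorylates Yap, was higher by 1.38 ± 0.20 (log2, SE, edgeR adjusted p = 0.0362) and passed in 0 of the 6 leave-one-out fits. Their paralogs in the list did not pass: LATS1 (ENSDARG00000003751) had a log2 fold change of -0.03 ± 0.19 (SE) and AMOTL2 (ENSDARG00000061923) 0.95 ± 0.31 (SE). The median of the list was 0.16, with 20 genes above 0 and 8 below. The rise of the genes that passed was known when the list was drawn up, so their p-values and pass counts are a description.

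Planar cell polarity, the orientation of cells within a sheet, is the second process in which Fat and Dachsous act in Drosophila. The 24 tested genes of that pathway had a median log2 fold change of 0.26, with 16 genes above 0. Of them 1 passed as higher and 0 as lower, where 0.665% of all tested genes passed. The gene was CELSR2 (ENSDARG00000019726), itself a large cadherin of the Flamingo type, at 1.29, 1.28 and 1.39 CPM in WT and 3.87, 5.25 and 4.13 CPM in lf:Yap (log2 fold change 1.74 ± 0.26, SE; edgeR adjusted p = 0.0420). It too passed in 0 of the 6 leave-one-out fits. DESeq2, which called 1066 genes in all against 164 by edgeR, called 3 genes of this list higher, CELSR2, VANGL1 and fuz. Of these, VANGL1 and fuz are named after their values were seen.

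Of 37 other cadherins and protocadherins tested, 0 passed by edgeR, where 0.665% of all tested genes did. At an unadjusted edgeR p under 0.05, 2 had more and 1 had less transcript, against 1509 and 1282 of all 24674 tested genes. DESeq2 called 1 of these cadherins higher, with 1066 genes called in all, and limma-voom 0, with 187 in all. PCDH18 (ENSDARG00000089805), a protocadherin gene, had a mean of 1.08 ± 0.113 CPM in WT livers against 2.95 ± 0.442 CPM with the transgene (± SD, n = 3 each; edgeR adjusted p = 0.0905). The other gene with the symbol PCDH18, ENSDARG00000052494, had overlapping groups and a log2 fold change of -0.20 ± 0.87 (SE). cdh5 (ENSDARG00000075549), the cadherin of endothelial junctions, had means of 21.0 ± 1.73 and 30.4 ± 3.08 CPM (edgeR adjusted p = 0.336), and the 10 endothelial markers, cdh5 among them, summed to 63.4 to 94.4 CPM in WT and to 90.5 to 109.3 CPM in lf:Yap. The median log2 fold change of these cadherins was 0.09.

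**Figure D4:**
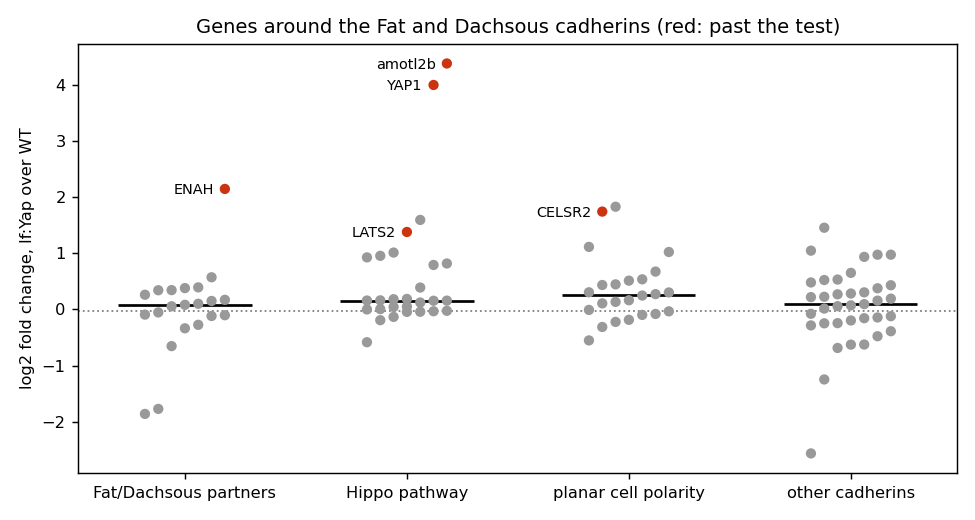
Log2 fold change of lf:Yap over WT (vertical axis) of every tested gene in 4 lists (points, spread sideways for legibility; red where past edgeR's test over all genes), with the median of each list (bar) and of all tested genes (dotted, -0.03). ENAH, amotl2b, YAP1, LATS2 and CELSR2 are the 5 genes in red, all above 0.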

How the data were processed

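The authors deposited 1 table of unnormalized counts with a column for each of 6 libraries. The submitters' processing notes name HTSeq 0.6.0 and STAR 2.3.0e. Build, annotation and strand setting were not given in the sources used here, so reads of near-identical paralogs and of overlapping genes may be split or lost. Groups came from the sample titles. Gene symbols came from a table of IDs, which matched 17999 of 25640. Listed genes matched to no row were not read. They were 6 of 29 entries for the partners, fjx1 among them, and 11 of 41 for the Hippo pathway. In the planar cell polarity list they were 2 of 28, and for other cadherins 16 of 54, cdh1 among them. The members and gene lists were chosen with earlier results of these data known.

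Counts were fitted in R 4.3.3 by edgeR 4.0.16 (low counts filtered by filterByExpr, which kept 24674 genes and all 8 members; TMM; robust quasi-likelihood test, two-sided, Benjamini-Hochberg over all tested genes). The procedure was tested on simulated counts with known changes, drawn independently for each gene. Differences shared by many genes between libraries, such as pancreas RNA, were not simulated. CPM use TMM-scaled library sizes, and the SE is the log2 fold change over the square root of F. CPM are not divided by gene length, so levels are compared between libraries and not between genes. At these depths counting error is small above 1 CPM, and the spread between libraries limits precision. Replicate pairs differed far beyond sampling noise (197.1 to 355 as chi-square over its degrees of freedom). An exact permutation of 3 against 3 libraries cannot give a p below 0.1 and was not used. Alternatives were DESeq2 1.42.0, limma-voom (limma 3.58.1), RLE size factors, 2 other filters, a replicate block and leaving out each library.

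Named were all members; in each list the genes that passed, or otherwise the 2 with the lowest p; the 5 genes with the highest r to each member called, among genes with a mean of at least 1 CPM and symbols other than clone names; the 2 nearest genes on each side of fat2; and YAP1. SLC36A1, EVL, LATS1, AMOTL2, cdh4, the other PCDH18 gene, the companions of FAT3, VANGL1, fuz and the single marker genes were added after their values were seen.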

Additional observations from a re-analysis of the deposited data

How the results depend on the processing

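The log2 fold change of FAT2 was 4.12 to 5.28 over the 6 fits that left out 1 library and 4.39 to 4.74 in the other alternatives; it passed the test in 6 of 13 alternatives. With the FAT2 difference known beforehand, these passes are a description. The number of members called was 1 with RLE size factors, DESeq2, limma-voom, no filter and a filter of 1 CPM in 3 libraries, and 0 to 1 without 1 library. The 7 other members passed in 0 of 89 alternatives and kept their sign in 83; the 6 changes of sign were those of FAT1 (ENSDARG00000019063; limma-voom, replicate block, without WT replicate 2), FAT3 (ENSDARG00000087709) and dchs1a.

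Without 1 library, 32 to 94 genes were called in all (164 with all libraries), 0 in the Fat and Dachsous partner list, 1 to 2 in the Hippo list and 0 in the planar cell polarity list. DESeq2 called 1066 genes in all, 5 in the Hippo list, 3 in the planar cell polarity list and 1 among other cadherins. Libraries with the same replicate number had correlations of deviations of 0.108, 0.107 and -0.282, and not every library correlated best with its own number. With 3 libraries in each group, these values cannot settle whether the numbers pair the samples. With the numbers as a replicate block 17 genes were called in all, 1 in the Hippo list. Among members, partners and planar cell polarity genes 0 were called (1, 2 and 3 at an unadjusted p under 0.05). Chosen after seeing the data, a fit of only the 3 libraries poor in pancreas RNA, in which the lone lf:Yap library is assumed to vary like WT, called 0 genes in all (1761 at an unadjusted p under 0.05) and 0 among members, partners, Hippo and planar cell polarity genes (1, 1, 5 and 2), with fewer samples by construction. For the other changes with a setting, the cause was not tested. FAT3 (ENSDARG00000087709) rests on 3 to 17 reads a library, and the sign of FAT1 (ENSDARG00000019063) on WT replicate 2, with 154 reads against 17 and 9 in the other WT libraries.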
